A study of Mus musculus with 6 samples.

Results

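The genes described here are 31 targets of the transcription factor p53 that act in cell death, DNA repair, metabolism and signalling, rather than in the feedback and growth arrest arms of the pathway. They were taken by symbol from the probe sets whose annotation names exactly 1 gene, and the brightest probe set was kept where a gene had several. This gave 30 members among the 22180 genes measured; Ddb2 is not analysed here. The study measured bone marrow-derived macrophages of C57Bl/6 mice on 6 Affymetrix arrays, 2 in each of 3 groups. All cells were first grown for 5 days in 20 ng/ml M-CSF, the growth factor that turns bone marrow precursors into macrophages. After replating, the M-CSF group received 50 ng/ml of that factor, the FSL-1 group 20 ng/ml FSL-1, and the third group the same FSL-1 dose plus 10 µM nutlin-3a, each over 6 days. FSL-1 is a synthetic lipopeptide that activates the TLR2 and TLR6 receptor pair, and the series design speaks of multinucleated giant cells. Nutlin-3a is a small molecule that occupies the p53 pocket of the ubiquitin ligase Mdm2. The RNA came from sorted cells; the sources used here name no gate. No group received nutlin-3a without FSL-1, so the effect of the compound was seen in FSL-1 cultures only. The labels do not say whether M-CSF was present together with FSL-1. In FSL-1 against M-CSF, an effect of FSL-1 and an effect of less M-CSF therefore cannot be told apart.

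p53 is a sequence-specific activator that is held at a low level by Mdm2 and accumulates after DNA damage, oncogene activity or block of Mdm2. Its targets divide into those that stop the cell cycle, those that promote apoptosis through death receptors and mitochondria, and those that repair DNA or adjust metabolism. Which of these programmes is engaged differs between cell types and stimuli. The amount and activity of the p53 protein were not measured here.

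Values are log2 levels after the authors' RMA normalisation, and 1 unit is a 2-fold difference. The arrays had close medians over all genes, and all 10 macrophage markers used for the check lay above the median of all genes, with a median level of 10.99 to 11.44 on the 6 arrays. Fewer markers of other cells lay above that median (5.51): 1 of 10 neutrophil, 2 of 8 lymphocyte, 4 of 10 fibroblast and 2 of 7 dendritic cell markers. The summed level of 3 of these lists (log2) was higher on both FSL-1 arrays than on both M-CSF arrays: 8.35 on both against 7.85 to 7.87 for neutrophil, 8.89 to 9.24 against 8.67 to 8.81 for fibroblast and 9.54 to 9.59 against 9.19 to 9.35 for dendritic cell markers. With nutlin-3a the sums were 8.20 to 8.29, 8.64 to 8.66 and 9.35 to 9.42. Such a sum is set mainly by its brightest genes. The median log2 change with FSL-1 over the neutrophil, fibroblast and dendritic cell lists was 0.10, 0.18 and -0.01. S100a8 changed by 2.40 in the neutrophil list, and Cd209a, the brightest dendritic cell marker, by 0.33. The part of these markers in the results was not tested. In bulk RNA, fewer cells that express a gene and less RNA per cell cannot be told apart. Calls below are limma's, with a Benjamini-Hochberg adjusted p under 0.05 over all 22180 genes.

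With nutlin-3a, 15 of 30 members rose against FSL-1 and 0 fell, while 2.38% of all genes rose and 4.12% fell. At an unadjusted p under 0.05, 19 members were higher and 0 lower, and with a trended, robust variance (eBayes) 16 rose and 0 fell. That variance called 2658 of the 22180 genes in either direction. The share of all genes at the unadjusted threshold was not counted, here or below. The median log2 change of the members was 0.59, beside 0.02 for all genes. Of the risers, 10 exceeded 2-fold, led by Trp53inp1, Phlda3 and Gtse1, and 1 of the 10, Eda2r, did so from a level near that of probe sets without a gene name. In 24 of 30 members both nutlin-3a arrays lay above both FSL-1 arrays, against 27.2% of all genes, and in 3 they lay below, against 23.7%. By role, 6 of 11 death genes, 3 of 6 metabolic genes and 6 of 9 signalling genes rose, and 0 of 4 repair genes did; the difference between roles was not tested. With FSL-1 replicate 1 left out, 6 members rose in place of 15, and with FSL-1 + nutlin-3a replicate 1 left out, 8 did. The same omissions took the death genes from 6 to 1 and 3, and the signalling genes went from 6 to 3 whichever of the 4 compared arrays was omitted.

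With FSL-1 and no nutlin-3a, 3 of 30 members rose against M-CSF and 0 fell, beside 3.91% and 2.95% of all genes. At an unadjusted p under 0.05, 8 members were higher and 4 lower, and with the trended, robust variance 5 rose and 2 fell. That variance called 2744 of the 22180 genes in either direction. The 3 were the death receptors Tnfrsf10b and Fas and the metabolic regulator Tigar. The members' median change was 0.03 (all genes -0.01). In 11 members both FSL-1 arrays lay above both M-CSF arrays, against 24.6% of all genes, and in 7 below, against 25.6%. Omitting FSL-1 replicate 1 or FSL-1 replicate 2 left 1 of the 3 calls. When the nutlin-3a group was set directly against M-CSF, 14 members rose and 0 fell, beside 4.58% and 4.94% of all genes. At an unadjusted p under 0.05, 22 were higher and 2 lower there, and with the trended, robust variance 21 rose and 2 fell. Of the 22180 genes, 3337 were called in either direction with that variance. The groups stood apart upward in 24 members (27.3% of all genes) and downward in 4 (24.2%). The FSL-1 arrays enter both of the first 2 comparisons and the nutlin-3a arrays enter 2, so the comparisons are not independent of each other. Of the members, 1 rose in both steps (Tnfrsf10b), 2 rose in the FSL-1 step and were not called with nutlin-3a (Fas and Tigar), 14 rose in the nutlin-3a step alone, and 13 passed in no comparison.

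**Figure D1:**
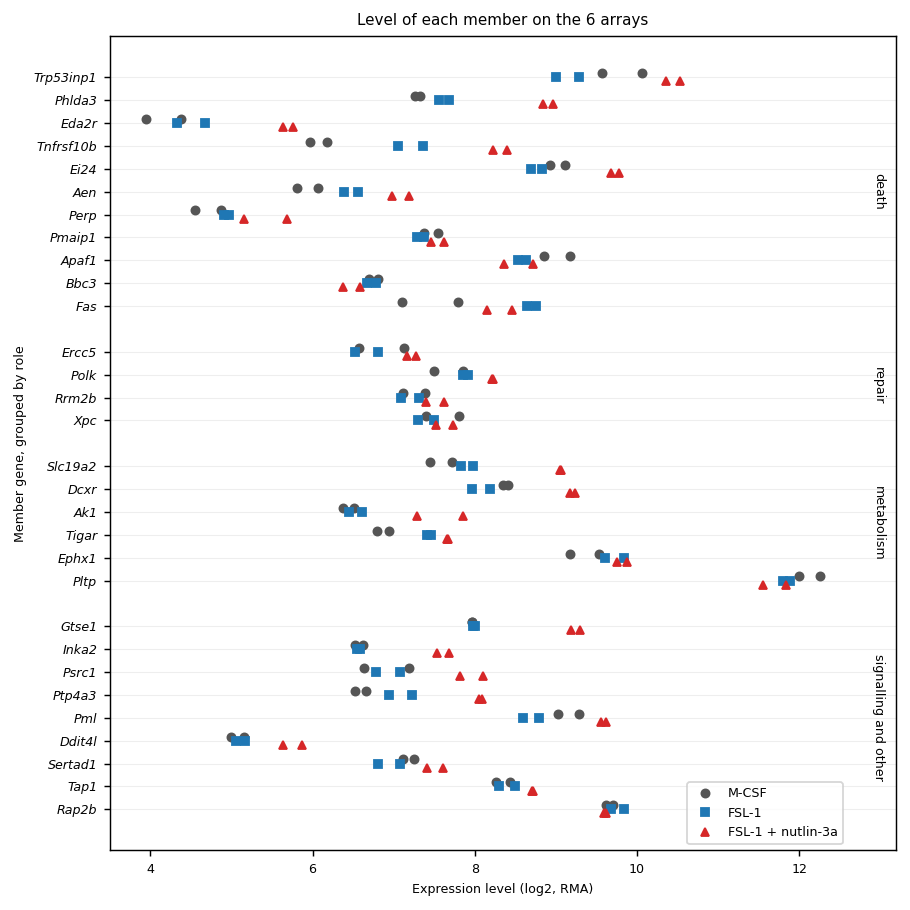
Level (log2, RMA) of the 30 members on each of the 6 arrays, grouped by role, with circles for M-CSF, squares for FSL-1 and triangles for FSL-1 + nutlin-3a. In 22 members both triangles lie to the right of the other 4 points. In Bbc3 both lie to the left, and in Rap2b a triangle is nearly level with an M-CSF circle.

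Both nutlin-3a arrays lay above all 4 other arrays in 22 of 30 members, as they did in 14.4% of all genes (3193 of 22180). They lay below the other 4 in 2 members, Bbc3 and, by its brighter probe set, Rap2b. For Rap2b this was close to a tie, with 9.6204 on nutlin-3a replicate 1 and 9.6213 on M-CSF replicate 1. The share of all genes below the other 4 was not counted, so these 2 are described only. The plot of levels by array shows this for each gene.

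p53 binds DNA as a tetramer at a response element built of a pair of palindromic decamers, often in a first intron as well as in the promoter. RefSeq promoters of build GRCm38.p6, 250 bases before to 50 bases after each annotated start, were matched by symbol for 23 members and 16990 measured genes. The consensus p53 decamer, which reads the same on both strands, occurred in the promoter of 8 of 23 members (34.8%) and of 8.71% of the genes. Among members that rose with nutlin-3a it was found in 6 of 12, and among the others in 2 of 11 (Polk and Rap2b). A longer motif, CATG followed after any 6 bases by a further CATG, was also searched and also reads the same on both strands. This motif is narrower than a pair of the decamers above, whose core can also be CTTG. It was found in 0 of 23 members and in 0.63% of the genes (107 of 16990). At that share few or no matches would fall among 23 genes, so the 0 cannot tell whether paired decamers are present. A match is a description of the letters in this window and not a binding site. The matches in the 6 members that rose are shown, 5′ to 3′ on the strand of the gene with the decamer in capitals. Those of Polk and Rap2b are not printed. The members were listed as p53 targets, so their higher share of matches is no independent result. Its bearing on the rise was not tested. Ddit4l is on the plus strand at chr3:137623522-137623651, Inka2 (plus) at chr3:105705367-105705396, Aen (plus) at chr7:78895927-78895956, Ei24 (minus) at chr9:36797325-36797354, Pml (minus) at chr9:58249861-58249990 and Gtse1 (plus) at chr15:85859945-85859974.
Ddit4l: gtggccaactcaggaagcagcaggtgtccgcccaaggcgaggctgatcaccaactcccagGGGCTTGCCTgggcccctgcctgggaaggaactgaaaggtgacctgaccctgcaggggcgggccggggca
Inka2: ctgtctgcccGGGCTTGTCTgccagcaggg
Aen: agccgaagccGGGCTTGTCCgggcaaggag
Ei24: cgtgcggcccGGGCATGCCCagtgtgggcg
Pml: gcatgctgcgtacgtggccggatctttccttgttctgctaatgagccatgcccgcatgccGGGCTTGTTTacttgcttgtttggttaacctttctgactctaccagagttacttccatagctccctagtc
Gtse1: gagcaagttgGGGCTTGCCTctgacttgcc
Counted from the annotated start, the first base of the decamer was at -90 in Ddit4l, -81 in Inka2, -144 in Pml, -10 in Ei24 and 10 in Gtse1. In Aen it was at -121 from an annotated start and at 11 from another. The Ddit4l and Pml stretches lie upstream of every annotated start of their genes.

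Among the death genes, 3 are receptors of the cell surface, and each was called in a different set of comparisons. Tnfrsf10b encodes the mouse receptor for the death ligand TRAIL. Its level was 6.18 and 5.97 in M-CSF, 7.05 and 7.36 in FSL-1, and 8.40 and 8.22 with nutlin-3a. The 3 groups did not overlap and stood in that order. Tnfrsf10b rose by 1.13 with FSL-1 (SE 0.15, adjusted p = 0.00484) and by a further 1.11 with nutlin-3a (SE 0.15, adjusted p = 0.0059), which together made a 4.72-fold difference from M-CSF (adjusted p = 0.000114, limma). This was the highest change of any member against M-CSF. The nutlin-3a step lost its call without FSL-1 replicate 1 (adjusted p = 0.0536).

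Fas, the receptor for Fas ligand, had levels of 7.79 and 7.10 in M-CSF, 8.65 and 8.75 in FSL-1, and 8.45 and 8.15 with nutlin-3a. Both treated groups lay above M-CSF, and both nutlin-3a arrays lay below both FSL-1 arrays. Fas rose 2.38-fold with FSL-1 (log2 change 1.25, SE 0.22, adjusted p = 0.0157), a call lost without FSL-1 replicate 1 (adjusted p = 0.0859) or FSL-1 replicate 2 (adjusted p = 0.106). The nutlin-3a step had -0.39 (95% interval -0.91 to 0.12, adjusted p = 0.366). Its M-CSF replicates differed more than those of any other member (SD 0.49). Against M-CSF the nutlin-3a group had 0.86 (adjusted p = 0.0509), which passed with the trended, robust variance (0.0109), among genes at or above the median level (0.0162), after a repeated quantile normalization (0.0335), with M-CSF replicate 1 omitted (1.21, adjusted p = 0.0123) and under the replicate block (0.037).

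Eda2r, a TNF receptor family member that binds an ectodysplasin isoform, was dim in M-CSF (4.38 and 3.94) and in FSL-1 (4.33 and 4.67), near the median of probe sets without a gene name (4.25). With nutlin-3a it had 5.76 and 5.63, above all other arrays. Eda2r rose with nutlin-3a by 1.19 on the log2 scale as measured (SE 0.18, adjusted p = 0.00952). Its level without nutlin-3a was not shown to be above background, so the size of its fold is not known. The call was lost without FSL-1 replicate 1 (adjusted p = 0.0789) or FSL-1 + nutlin-3a replicate 1 (adjusted p = 0.0645). So of these 3 cell surface receptors, Tnfrsf10b was called in both steps, Fas in the FSL-1 step and Eda2r in the nutlin-3a step.

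**Figure D2:**
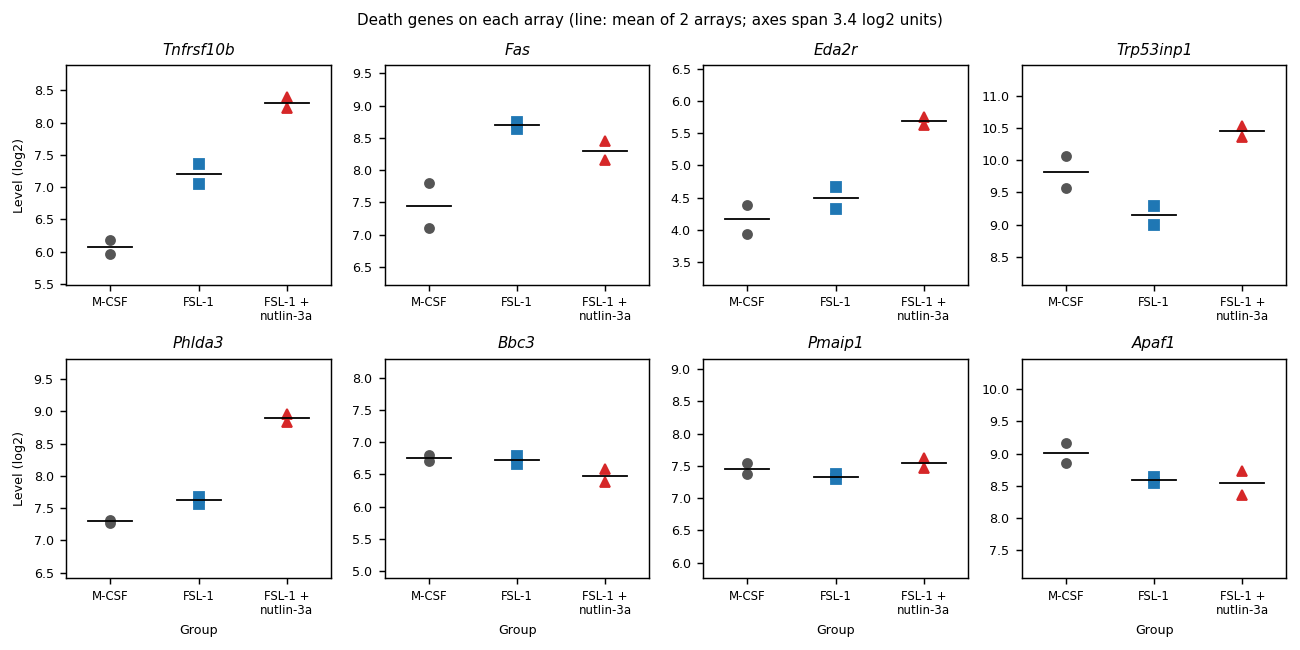
Level (log2) of 8 death genes on each array by group, 2 points per group with a line at their mean; every panel spans the same 3.4 log2 units. Tnfrsf10b climbs in both steps, Trp53inp1 and Phlda3 are highest with nutlin-3a, and Bbc3, Pmaip1 and Apaf1 have no change that passed.

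Trp53inp1 encodes a stress-induced nuclear protein that promotes apoptosis and autophagy. It had 10.06 and 9.57 in M-CSF, 9.0 and 9.29 in FSL-1, and 10.53 and 10.35 with nutlin-3a. FSL-1 lay below and nutlin-3a above the M-CSF arrays. The FSL-1 step was -0.67 (SE 0.19, adjusted p = 0.0775) and passed with the trended, robust variance (0.0139), among genes at or above the median level (0.0253) and without M-CSF replicate 2 (-0.91, adjusted p = 0.0402). With nutlin-3a Trp53inp1 rose 2.46-fold (log2 change 1.30, SE 0.19, adjusted p = 0.00719), the highest change of any member in that step. This call was lost without FSL-1 replicate 1 (adjusted p = 0.0664) or FSL-1 + nutlin-3a replicate 1 (adjusted p = 0.0553). Against M-CSF it had 0.63 (adjusted p = 0.0764), which passed under the same variance (0.0155) and filter (0.0261) and with M-CSF replicate 1 omitted (0.87, adjusted p = 0.0415).

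Phlda3, a pleckstrin homology domain protein that competes with Akt for membrane lipids, had 7.32 and 7.26 in M-CSF, 7.57 and 7.68 in FSL-1, and 8.84 and 8.96 with nutlin-3a. The groups did not overlap. Phlda3 rose 2.43-fold with nutlin-3a (SE 0.12, adjusted p = 0.0012) and was 3.05-fold above M-CSF. It kept its call in the nutlin-3a step on every set of 5 arrays.

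Ei24, an endoplasmic reticulum protein involved in apoptosis and autophagy, had 9.11 and 8.93 in M-CSF, 8.69 and 8.83 in FSL-1, and 9.78 and 9.67 with nutlin-3a. Ei24 rose by 0.96 with nutlin-3a (SE 0.13, adjusted p = 0.00502), a call lost without FSL-1 replicate 1 (adjusted p = 0.0546). Aen, an exonuclease that promotes DNA fragmentation in apoptosis, had 6.07 and 5.81, then 6.39 and 6.56, then 7.18 and 6.98 in the 3 groups in the same order. Its groups did not overlap, and each step was of similar size: 0.54 with FSL-1 (adjusted p = 0.0687) and 0.61 with nutlin-3a (adjusted p = 0.0466). The Aen call in the nutlin-3a step was at the edge of the threshold and failed on every set of 5 arrays (adjusted p = 0.0505 to 0.238). Against M-CSF Aen rose 2.21-fold (adjusted p = 0.00221) and kept the call in those fits. The FSL-1 step of Aen passed with the trended, robust variance (0.0308) and among genes at or above the median level (0.0195).

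The other 4 death genes, Bbc3, Pmaip1, Apaf1 and Perp, passed in no comparison of limma's fit. Bbc3 encodes Puma, a BH3-only protein that opens the mitochondrial path to apoptosis. It had 6.80 and 6.70 in M-CSF, 6.67 and 6.78 in FSL-1, and 6.58 and 6.38 with nutlin-3a. The nutlin-3a arrays were the lowest of the 6. The log2 change with nutlin-3a was -0.24 (adjusted p = 0.326), and the upper end of its 95% interval was 0.05. Pmaip1, which encodes the BH3-only protein Noxa, had 7.54 and 7.37, 7.38 and 7.29, and 7.46 and 7.63, with a nutlin-3a change of 0.21 (95% interval -0.08 to 0.50, adjusted p = 0.401). Apaf1, the scaffold of the apoptosome, had 9.17 and 8.85 in M-CSF, 8.54 and 8.64 in FSL-1, and 8.72 and 8.36 with nutlin-3a. It was highest in M-CSF, and neither the FSL-1 change (-0.42, adjusted p = 0.187) nor the nutlin-3a change (-0.04, adjusted p = 0.918) passed. Against M-CSF the nutlin-3a group had -0.47 for Apaf1 (adjusted p = 0.127), which passed with the trended, robust variance (0.0397) and among genes at or above the median level (0.0484). Perp, a tetraspan membrane protein, was dim (4.55 and 4.87, 4.90 and 4.97, 5.69 and 5.15), with a nutlin-3a change of 0.48 (adjusted p = 0.2) and replicates that differed by more in that group (SD 0.38) than in the others. Against M-CSF Perp had 0.71 (adjusted p = 0.0588), which passed with the trended, robust variance (0.0266), with FSL-1 + nutlin-3a replicate 2 omitted (0.0271) and with crossed replicate numbers as a block (0.0455). The 95% intervals of the nutlin-3a change ended at 0.05 for Bbc3, 0.50 for Pmaip1, 0.34 for Apaf1 and 0.92 for Perp. Each end lay below the value of a 2-fold rise. Perp was dim, where an array compresses changes, so its limit holds for the measured values only.

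No repair gene passed in limma's test in any of the 3 comparisons. At an unadjusted p under 0.05, 0 were higher or lower with FSL-1, and 1 was higher with nutlin-3a against each of the other groups; with the trended, robust variance 0, 0 and 1 passed. Polk, a translesion DNA polymerase, had 7.86 and 7.50 in M-CSF, 7.86 and 7.92 in FSL-1, and 8.21 and 8.22 with nutlin-3a. Ercc5, the endonuclease Xpg of nucleotide excision repair, had 7.13 and 6.57, 6.52 and 6.81, and 7.27 and 7.16. Rrm2b, the p53-inducible subunit of ribonucleotide reductase, had 7.38 and 7.12, 7.09 and 7.31, and 7.62 and 7.40. In all 3 genes both nutlin-3a arrays were the highest of the 6. Xpc, the damage sensor of nucleotide excision repair, had 7.81 and 7.40, 7.30 and 7.50, and 7.53 and 7.74, with nutlin-3a inside the M-CSF range. The nutlin-3a changes were 0.33 for Polk (adjusted p = 0.236), 0.55 for Ercc5 (0.147), 0.31 for Rrm2b (0.284) and 0.23 for Xpc (0.486). The 95% intervals ended between 0.62 and 1.00, the highest being that of Ercc5. Against M-CSF Polk had 0.54 (adjusted p = 0.054) and passed with the trended, robust variance (0.0122), among genes at or above the median level (0.015), after a repeated quantile normalization (0.0275) and without M-CSF replicate 1 (0.72, adjusted p = 0.0348).

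Among the metabolic genes, 3 rose with nutlin-3a and Tigar with FSL-1. Slc19a2, a high-affinity thiamine transporter, had 7.72 and 7.45 in M-CSF, 7.83 and 7.98 in FSL-1, and 9.05 and 9.07 with nutlin-3a. The nutlin-3a arrays stood more than 1 unit above every other array. Slc19a2 rose 2.22-fold (SE 0.13, adjusted p = 0.00298), and the call held on every set of 5 arrays. Dcxr, a reductase of L-xylulose and reactive dicarbonyls, had 8.41 and 8.34 in M-CSF, 7.97 and 8.18 in FSL-1, and 9.24 and 9.17 with nutlin-3a. It was lowest in FSL-1 (-0.30, adjusted p = 0.213) and rose 2.19-fold with nutlin-3a (SE 0.12, adjusted p = 0.00234), a call that also held in each of those fits.

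Ak1, adenylate kinase, which balances ATP, ADP and AMP, had 6.51 and 6.37, 6.45 and 6.61, and 7.86 and 7.29. Both nutlin-3a arrays were above the rest but differed from each other more than those of any other member in that group (SD 0.40). Ak1 rose 2.06-fold (SE 0.19, adjusted p = 0.0182), a call lost without FSL-1 replicate 1 (adjusted p = 0.131), FSL-1 replicate 2 (adjusted p = 0.0906) or FSL-1 + nutlin-3a replicate 1 (adjusted p = 0.0616).

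Tigar, a fructose-2,6-bisphosphatase that lowers glycolytic flux, had 6.80 and 6.95 in M-CSF, 7.41 and 7.46 in FSL-1, and 7.67 and 7.66 with nutlin-3a. The groups stood in that order without overlap. Tigar rose by 0.56 with FSL-1 (SE 0.12, adjusted p = 0.0276). That call missed the threshold whichever of the 4 compared arrays was omitted (adjusted p = 0.0554 to 0.163) and with the replicate number as a block (adjusted p = 0.052). The nutlin-3a change was 0.23 (95% interval -0.03 to 0.50, adjusted p = 0.299). Against M-CSF Tigar rose 1.73-fold (adjusted p = 0.00449) and kept that call on every set of 5 arrays. Ephx1, the microsomal epoxide hydrolase (9.53 and 9.18, 9.60 and 9.83, 9.76 and 9.87), and Pltp, the phospholipid transfer protein (12.26 and 12.00, 11.80 and 11.89, 11.56 and 11.84), passed in no comparison. Ephx1 was lowest and Pltp highest in M-CSF. With the trended, robust variance and among genes at or above the median level, the difference of the nutlin-3a group from M-CSF passed for Ephx1 (0.46, adjusted p = 0.0234 and 0.0394) and for Pltp (-0.43, adjusted p = 0.0135 and 0.0418).

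**Figure D3:**
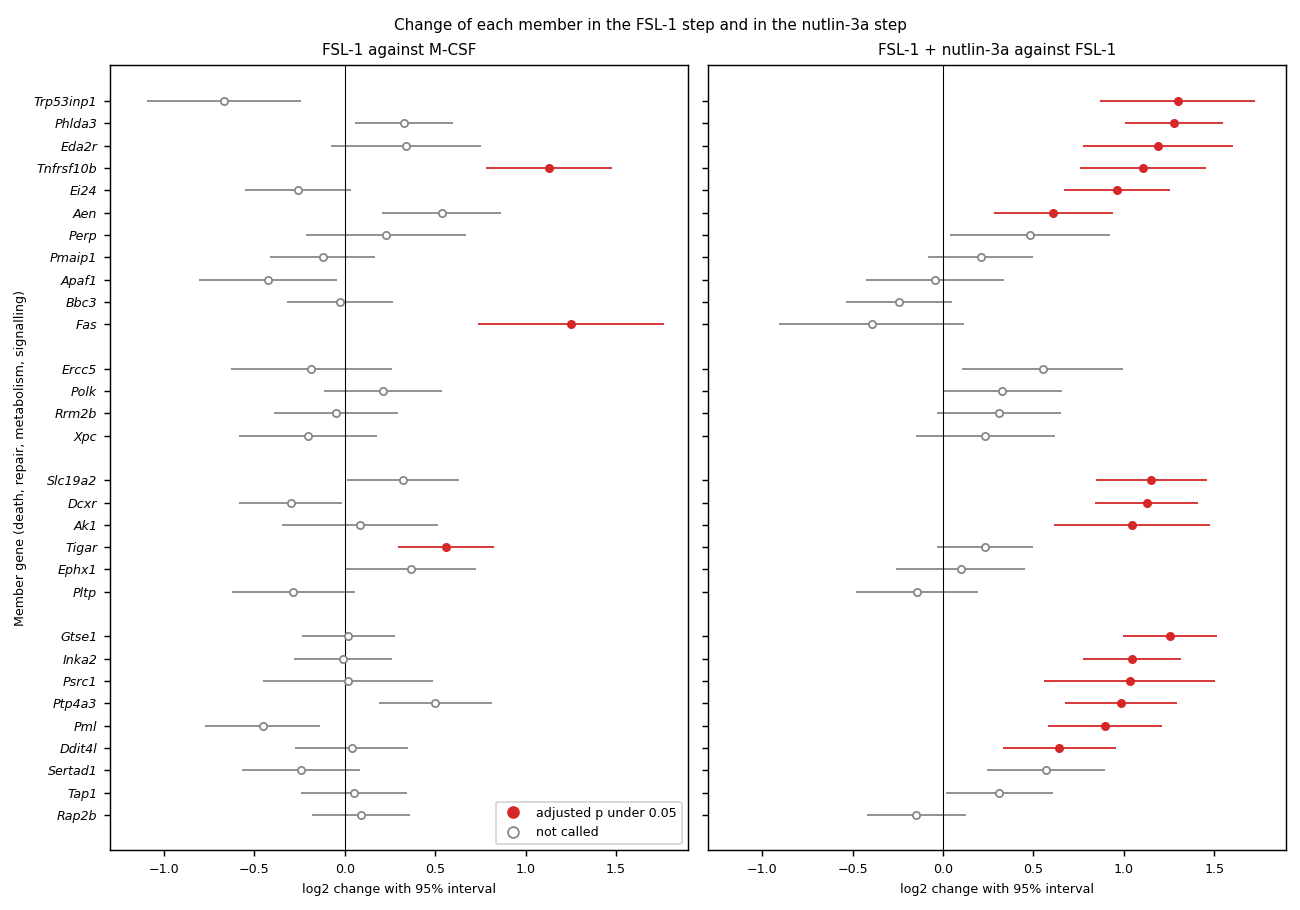
Log2 change of each member with its 95% interval from limma, for FSL-1 against M-CSF on the left and FSL-1 + nutlin-3a against FSL-1 on the right; filled red points passed an adjusted p of 0.05. On the left 3 points are filled and on the right 15, none of them a repair gene.

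Of the signalling members, 6 of 9 rose with nutlin-3a. Gtse1 encodes a microtubule-associated protein of G2 phase that shuttles p53 out of the nucleus. It had 7.97 and 7.97 in M-CSF, 7.98 and 8.004 in FSL-1, and 9.30 and 9.19 with nutlin-3a. The 4 arrays without nutlin-3a lay between 7.97 and 8.004. Gtse1 rose 2.39-fold (SE 0.11, adjusted p = 0.0011) and kept the call on every set of 5 arrays. Psrc1, a spindle-associated protein, had 7.18 and 6.63, 6.78 and 7.08, and 7.82 and 8.10. Psrc1 rose 2.04-fold (SE 0.20, adjusted p = 0.0266), but missed the threshold whichever of the 4 compared arrays was omitted (adjusted p = 0.0731 to 0.17).

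Gtse1 and Psrc1 act in cell division, and other genes of mitosis had the opposite sign. Of 19 measured mitosis genes, 15 fell with FSL-1, beside 2.95% of all genes. Fewer did with M-CSF replicate 1 or either FSL-1 array omitted. With nutlin-3a 19 of 19 fell (median log2 change -1.70), beside 4.12% of all genes, and fewer did when a single array was omitted. The proliferation marker Mki67 had 10.20 and 10.17 in M-CSF, 8.93 and 8.98 in FSL-1, and 7.68 and 7.11 with nutlin-3a, and fell by 1.56 in the nutlin-3a step (adjusted p = 0.00293). Kif11, the spindle motor, fell by 2.45, Nuf2, a kinetochore protein, by 2.19 and Kif23, the central spindle motor, by 2.05. The summed level of the list (log2) was 12.95 to 13.04, 12.00 to 12.05 and 10.24 to 10.51 in the 3 groups.

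**Figure D4:**
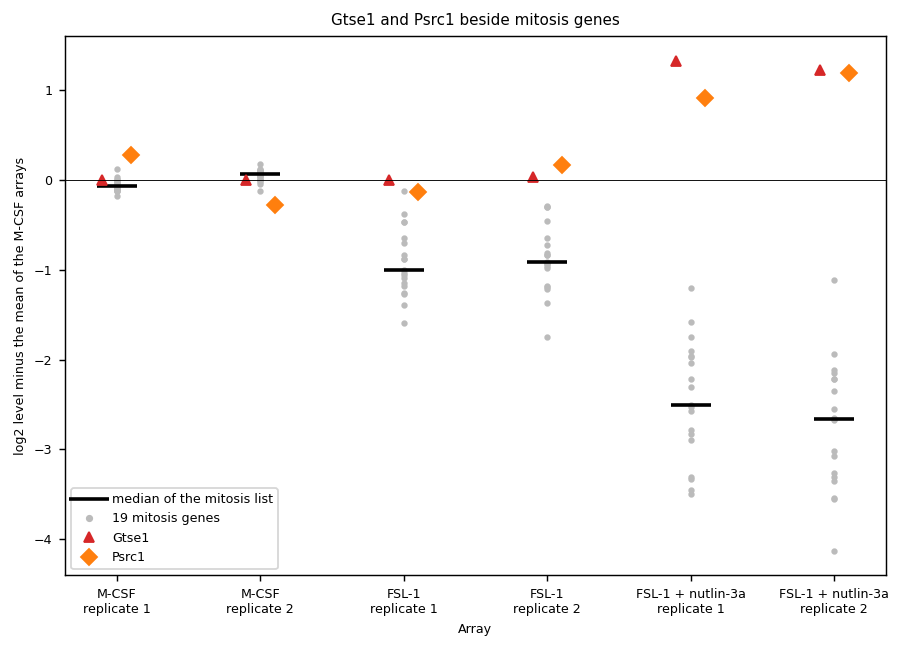
Log2 level minus the mean of the M-CSF arrays, on each of the 6 arrays, for Gtse1 (triangles), Psrc1 (diamonds) and 19 mitosis genes (grey points, with a bar at their median). Each grey point on the nutlin-3a arrays is below 0, and Gtse1 and Psrc1 are above 0.

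Inka2, an inhibitor of the kinase Pak4, had 6.62 and 6.52, 6.54 and 6.58, and 7.68 and 7.54. It had -0.01 between M-CSF and FSL-1 (95% interval -0.28 to 0.26) and rose 2.07-fold with nutlin-3a (SE 0.12, adjusted p = 0.00262), also on every set of 5 arrays. Ptp4a3, the phosphatase PRL-3, had 6.66 and 6.52, 7.23 and 6.95, and 8.06 and 8.09. The groups did not overlap. Ptp4a3 had 0.50 with FSL-1 (adjusted p = 0.0708) and rose by 0.98 with nutlin-3a (SE 0.13, adjusted p = 0.00603), a call lost without FSL-1 replicate 2 (adjusted p = 0.0553). Against M-CSF it rose 2.80-fold (adjusted p = 0.000457). The FSL-1 step of Ptp4a3 passed with the trended, robust variance (0.0245) and among genes at or above the median level (0.0197).

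Pml, the organiser of nuclear bodies, followed the pattern of Trp53inp1: 9.28 and 9.02 in M-CSF, 8.59 and 8.80 in FSL-1, and 9.56 and 9.62 with nutlin-3a. FSL-1 was lowest (-0.45, adjusted p = 0.0995), and Pml rose by 0.90 with nutlin-3a (SE 0.14, adjusted p = 0.0099) but had 0.44 against M-CSF (adjusted p = 0.0897). With the trended, robust variance and among genes at or above the median level, Pml passed in the FSL-1 step (0.0185 and 0.031) and against M-CSF (0.0178 and 0.0282). The nutlin-3a call was lost without FSL-1 replicate 1 (adjusted p = 0.088), FSL-1 + nutlin-3a replicate 1 (adjusted p = 0.0506) or FSL-1 + nutlin-3a replicate 2 (adjusted p = 0.0587). Ddit4l, an inhibitor of mTORC1 signalling, was dim without nutlin-3a (4.99 and 5.16, 5.05 and 5.17) and had 5.88 and 5.64 with it. Ddit4l rose by 0.64 (SE 0.13, adjusted p = 0.0323), but not once a compared array was omitted (adjusted p = 0.0573 to 0.189), nor with the replicate number as a block (adjusted p = 0.0575).

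Sertad1, a regulator of Cdk4 and E2F activity, had 7.25 and 7.11, 6.80 and 7.08, and 7.60 and 7.42, and missed the threshold with nutlin-3a (0.57, adjusted p = 0.0563). Sertad1 passed in that step with the trended, robust variance (0.0163), among genes at or above the median level (0.0153) and after a repeated quantile normalization (0.0253). Tap1, a subunit of the peptide transporter for MHC class I, had 8.43 and 8.26, 8.30 and 8.50, and 8.70 and 8.72. Its nutlin-3a arrays were the highest, but the change of 0.31 did not pass (adjusted p = 0.209). Against M-CSF Tap1 had 0.36 (adjusted p = 0.127), which passed with the trended, robust variance (0.0439) and among genes at or above the median level (0.0425). Rap2b, a small GTPase, is the only member with a further probe set, and the probe sets disagreed. The brighter had 9.62 and 9.71, 9.67 and 9.84, and 9.62 and 9.59, with a nutlin-3a change of -0.15 (adjusted p = 0.541). The other had 6.95 and 6.86, 7.36 and 7.53, and 7.66 and 7.78, so the mean of both gave 0.07 in that step and no direction can be given for Rap2b.

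The other arms of the pathway were read from a list of 20 further p53 targets, 17 of them measured. With nutlin-3a 7 rose and 1 fell, beside 2.38% and 4.12% of all genes, with a median change of 0.37 (all genes 0.02). Mdm2 itself had 9.98 and 9.76 in M-CSF, 10.76 and 10.75 in FSL-1, and 11.52 and 11.53 with nutlin-3a. It rose by 0.88 with FSL-1 (adjusted p = 0.00566) and by 0.77 with nutlin-3a (adjusted p = 0.0113); the former missed the threshold when an FSL-1 array was omitted (adjusted p = 0.0504 and 0.0543), the latter whichever of its 4 arrays was omitted (adjusted p = 0.0591 to 0.0901). Cdkn1a, the cell cycle inhibitor p21, rose by 0.61 with nutlin-3a (adjusted p = 0.0431), but not on any set of 5 arrays (adjusted p = 0.0564 to 0.222), nor with the replicate number as a block (adjusted p = 0.0693). Zmat3, an RNA-binding target, rose by 1.25 (adjusted p = 0.00469, and 0.0502 without FSL-1 replicate 1). Pidd1, the scaffold of the PIDDosome, rose by 0.94 (adjusted p = 0.00961), a call lost without FSL-1 replicate 1 (0.0843) or 2 (0.0577). Plk2, a stress-induced polo-like kinase, fell by 1.01 (adjusted p = 0.00418). In place of these 7, 0 rose with FSL-1 replicate 1 omitted, 1 with FSL-1 replicate 2 omitted and 2 with either nutlin-3a array omitted.

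With FSL-1, 4 of these 17 rose and 1 fell (median change 0.15), beside 3.91% and 2.95% of all genes. Plk3, another stress-induced polo-like kinase, rose by 2.30 and Plk2 by 1.45, while Sesn1, a sestrin that restrains mTORC1, fell by 1.31 (adjusted p = 0.000277, 0.0006 and 0.00299). Omitting either FSL-1 array left 2 risers, and omitting M-CSF replicate 2 gave 2 fallers. Against M-CSF, 10 rose and 1 fell in the nutlin-3a group (median change 0.73), beside 4.58% and 4.94% of all genes. Among the risers were Mdm2 by 1.65 and Sesn2, another sestrin, by 1.18. Mdm2 and Tnfrsf10b were the 2 genes of both lists that were called upward in each step.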

How the data were processed

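The authors deposited log2 expression values, 1 per probe set and array, from RMA (Affymetrix Expression Console 1.4 by the submitters' processing notes). RMA gives all arrays 1 distribution, so a shift shared by most genes would not be seen. The platform annotation, whose build no source used here names, gives 23521 of 34390 probe sets 1 gene, 1814 several and 9055 none. All 22180 genes were fitted on the 6 arrays with limma 3.58.1 in R 4.3.3 (lmFit, eBayes), with 3 residual and 4.88 prior degrees of freedom and no filter. The script was tested on simulated data. The labels name no separate cultures or animals for the replicates: the p-values then reflect only differences among these arrays, possibly technical, and the number of arrays limits the precision. The members, the lists and the rule for named genes (each member, up to 3 called genes of every other list by smallest p, and Mdm2, Cdkn1a and Mki67) were chosen with earlier results of these data known. Alternatives changed the variance model, centring, normalization, choice of probe sets, dim genes, arrays in the fit and the replicate block, or asked for a fold above 1.2. Without a compared array its group held a single array, and fewer of all genes were called too. A call lost in such a fit does not by itself show a smaller change. Plots were made with matplotlib 3.10.9.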

Additional observations from a re-analysis of the deposited data

How the results depend on the processing

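The count of members that rose with nutlin-3a over FSL-1 was 11 to 16 under the other settings (15 as reported) and 6 to 14 with an array omitted, with 0 lower throughout. With FSL-1 over M-CSF 3 became 5 with a trended, robust variance and 5 among genes at or above the median level, where 2 and 2 members were lower in place of 0; on 5 arrays 1 to 3 were higher and 0 to 1 lower. Over M-CSF, the nutlin-3a group had 14 higher members, 21 with the trended, robust variance and 11 to 16 on 5 arrays; 2 and 2 were lower under the same pair of settings. Over all genes, 528 rose and 913 fell with nutlin-3a, and calls in either direction numbered 2658 with that variance, 2579 among the brighter genes and 453 with a fold minimum of 1.2. Same-numbered arrays did not deviate together (correlations -0.19 to 0.02). The labels do not say whether the numbers pair the arrays, and with 2 arrays per group these correlations cannot settle it. With the replicate block 2 members rose for FSL-1 over M-CSF, 13 for nutlin-3a over FSL-1 and 15 for nutlin-3a over M-CSF. With the M-CSF numbers crossed, a pairing chosen after seeing the data, these were 3, 14 and 15. The signs that turned all belong to members not called in that comparison, and the cause was not tested. Centring gave -0.014 for Psrc1 and -0.013 for Gtse1 with FSL-1 and -0.0020 for Xpc in nutlin-3a over M-CSF; the mean of both probe sets of Rap2b gave 0.066 over FSL-1 and 0.38 over M-CSF. On 5 arrays the FSL-1 change ran from -0.086 to 0.034 for Bbc3, -0.18 to 0.085 for Rrm2b, -0.41 to 0.00045 for Xpc, -0.46 to 0.092 for Ercc5, -0.26 to 0.29 for Psrc1, -0.046 to 0.12 for Ddit4l, -0.049 to 0.15 for Tap1 and -0.061 to 0.042 for Inka2. The nutlin-3a change over FSL-1 ran from -0.22 to 0.14 for Apaf1 and -0.019 to 0.21 for Ephx1, and that over M-CSF from -0.17 to 0.23 for Xpc. Eda2r, Perp and Ddit4l lay below the median of all genes, where an array compresses changes.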

Other observations

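Genes of the apoptosis machinery outside the member list were measured beside the members. Of 20 measured, 0 rose and 0 fell with nutlin-3a, beside 2.38% and 4.12% of all genes. At those shares few calls would fall among 20 genes. Their median log2 change was -0.06, with a range of -0.47 to 0.45. At an unadjusted p under 0.05, 2 were higher and 3 lower, and with the trended, robust variance 1 rose and 3 fell. With FSL-1, 4 rose and 2 fell, beside 3.91% and 2.95% of all genes. Cycs, cytochrome c, rose by 0.97 (adjusted p = 0.00564), Bcl2, the founding inhibitor of mitochondrial apoptosis, by 0.79 (adjusted p = 0.00824), and Bcl2l11, the BH3-only protein Bim, fell by 0.93 (adjusted p = 0.0224). Leaving out FSL-1 replicate 1 ended all 3 calls (adjusted p = 0.0579, 0.0654 and 0.152). The Bcl2 and Bcl2l11 calls were also lost without M-CSF replicate 1 (0.0636 and 0.122) or FSL-1 replicate 2 (0.0702 and 0.062), and the mean of the probe sets of Bcl2 had 0.34 (adjusted p = 0.171). The counts of 4 and 2 were 0 to 2 and 0 to 2 on the sets of 5 arrays.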
